A study of Rattus norvegicus with 9 samples.

Results

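Integrins and laminins were examined in adipose-derived stem cells (ASCs) from 3 fat deposits of male Sprague Dawley rats aged 6 weeks. The genes were taken by symbol, as every row named Itga, Itgb, Lama, Lamb, or Lamc plus its number or letter, which gave 37 of the 35362 genes in the count table (18 integrin α subunits, 8 integrin β subunits, and 11 laminin chains). Subcutaneous ASCs (SASCs) came from groin fat, perirenal ASCs (PASCs) from the fat around the kidney, and epididymal ASCs (EASCs) from the fat beside the epididymis. All 3 groups were freed with collagenase type I, grown as adherent cells, and collected untreated at passage 3, with 3 samples per group, so the measurements describe expanded cultures and not fat tissue. By the methods, RNA was taken from wells of culture plates, with more replicates per group than the 3 analysed here. Whether the wells came from different animals is not given in the sources used here, and the p-values therefore measure the spread between these samples, which may be technical.

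Integrins are cell surface receptors made of one α and one β subunit, and the pair decides which ligand is bound. Laminins are cross-shaped basement membrane proteins made of one α, one β, and one γ chain, and several integrins with the β1 or β4 subunit bind them. In fat, each adipocyte is wrapped in a laminin-rich basement membrane, while stromal cells also meet collagens and fibronectin, which other integrins recognise.

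The 9 samples held 17591916 to 30299032 counts each, and 3 counts corresponded to 0.104 to 0.159 counts per 1000000 (CPM). Genes for ribosomal RNA took a smaller part of the SASCs counts (10.4% to 15.5%) than of the PASCs (22.4% to 32.9%) or EASCs counts (15.9% to 40.3%), and their part in the results below was not tested beyond leaving them out of the fit. Mesenchymal markers summed to 29057 to 35076 CPM per sample over 11 genes, but 3 of the 11 (Dcn, Lum, and Pdgfra) were downregulated in both EASCs and PASCs, 1 (Eng) was upregulated in EASCs, and the other 7 were not DEGs against SASCs. Dcn lay at 6712 to 7020.1 CPM (SASCs), 209 to 229 CPM (PASCs), and 288 to 319 CPM (EASCs), Lum at 3216 to 3242, 86.6 to 102, and 73.3 to 75.2 CPM, and Pdgfra at 1517 to 1585, 266 to 298, and 226 to 243 CPM in the same order. Eng lay at 56.3 to 63.6 CPM (SASCs), 86.8 to 93.2 CPM (PASCs), and 198 to 212 CPM (EASCs). The smooth muscle markers, summed over 8 genes, lay between 189 and 198 CPM (SASCs), 2917 and 3210.0 CPM (PASCs), and 6437 and 6794 CPM (EASCs). Mesothelial markers, summed over 10 genes, lay at 21.6 to 23.4 CPM (SASCs), 227 to 229 CPM (PASCs), and 192 to 207 CPM (EASCs). Endothelial markers, again over 10 genes, lay at 87.7 to 91.7 CPM (SASCs), 41.8 to 47.7 CPM (PASCs), and 61.9 to 68.0 CPM (EASCs). In bulk RNA, fewer cells of a type and less RNA per cell cannot be told apart.

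To find which adhesion genes differed between the deposits, all genes were tested together, and a gene was called a differentially expressed gene (DEG) with a fold change over 2 and an adjusted p under 0.05. The low-count filter kept 33 of the 37 genes. The others were nearly silent, with 0 to 8 counts per sample for Itga10, 0 to 1 for Itgad, 1 to 4 for Itgb6, and 0 to 12 for Lamc3. Between EASCs and SASCs, 14 of the 33 genes were upregulated (42.4%, where 13.5% of all 14770 genes tested were upregulated) and 4 were downregulated (12.1%, against 14.2% of all genes). Between PASCs and SASCs, 12 were upregulated (36.4%, against 12.0% of all genes) and 3 were downregulated (9.09%, against 14.9%). Scaling by total counts in place of TMM factors moved these splits to 13 up (39.4%, against 9.13% of all genes) and 7 down (21.2%, against 23.2%) in EASCs and to 8 up (24.2%, against 8.54%) and 6 down (18.2%, against 21.4%) in PASCs, while the median gene moved to −0.39 and −0.33 on the log2 scale. With the adjusted p alone and no fold limit, 20 of the 33 genes rose (60.6%, against 35.5% of all genes) and 8 fell (24.2%, against 34.3%) in EASCs, while 19 rose (57.6%, against 34.6%) and 10 fell (30.3%, against 34.6%) in PASCs. Both comparisons use the same SASCs samples, so their calls are not independent. In both, 11 genes were upregulated (33.3%, against 9.76% of all genes) and 3 were downregulated (9.09%, against 11.3%). Of the others, 3 were upregulated DEGs of the EASCs comparison alone (Itga1, Itgb1, and Lama5), and 1 was a downregulated DEG of the EASCs comparison alone (Lama2, which passed the fold limit in PASCs too under total-count scaling). The counts include Itgal, which no SASCs sample carried over the filter minimum, and Itga2b, which no EASCs sample did.

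**Figure D1:**
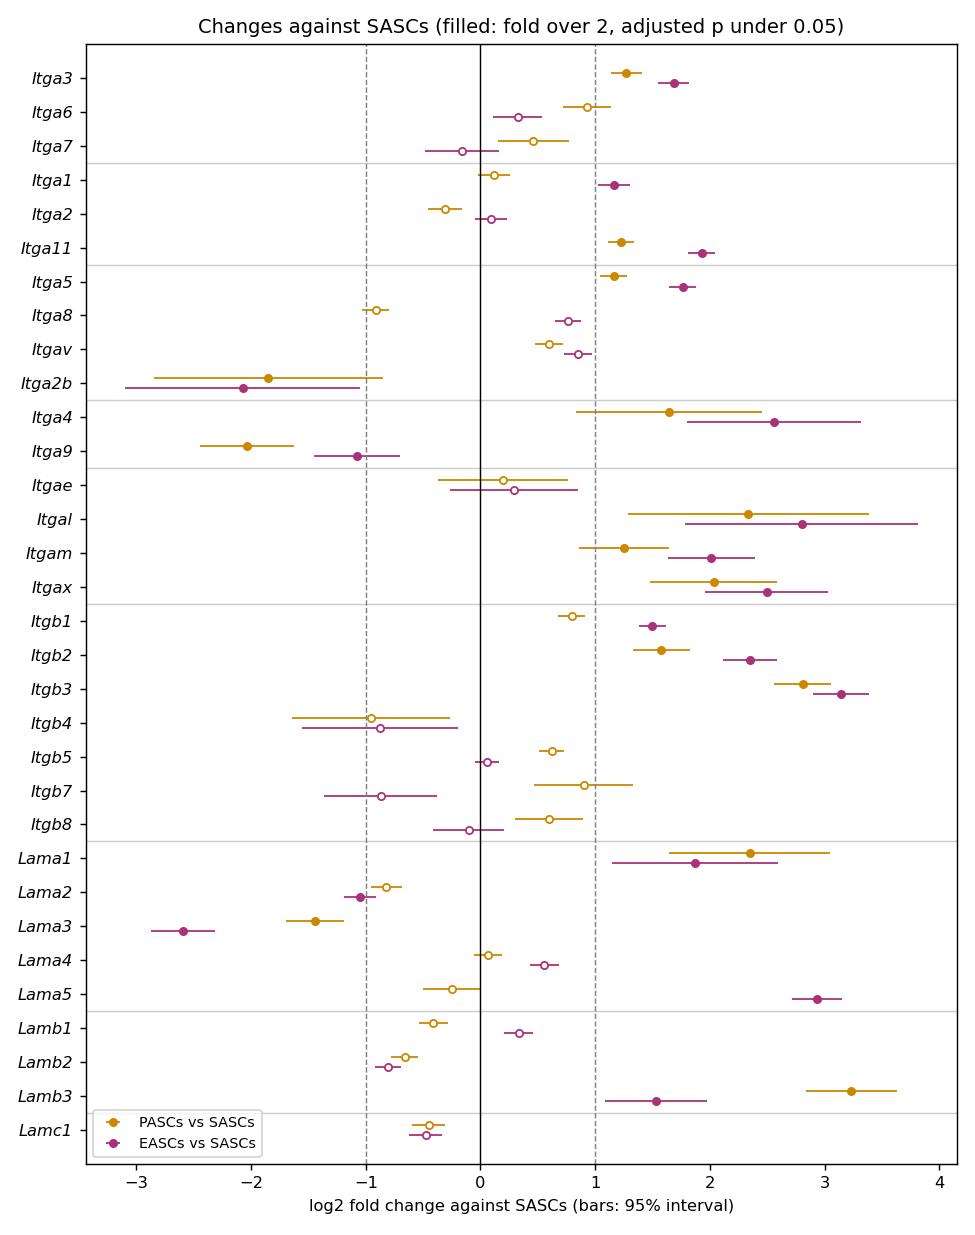
Log2 fold changes of 32 tested integrin and laminin genes against SASCs (horizontal axis), for PASCs in gold and EASCs in purple, with bars for the 95% interval, filled points for DEGs, and grey lines between role groups. Itgb3 lies far to the right in both comparisons, Lama5 does so in EASCs only with PASCs near 0, and Lamb3 lies farther right in PASCs than in EASCs.

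The laminin α chains carry the part of the protein that integrins bind. Compared per length, as CPM divided by the gene length in kilobases (FPKM), Lama4 was the most abundant α chain in all 3 groups, with 49.9 ± 2.77 FPKM in SASCs, 52.3 ± 4.39 in PASCs, and 73.4 ± 3.06 in EASCs (SD, n = 3). Lama4 encodes the α4 chain of vascular and mesenchymal laminins, and its samples stood at 297, 306, and 331 CPM (SASCs), 313, 307, and 357 CPM (PASCs), and 442, 450.3, and 479 CPM (EASCs). The EASCs samples were all above those of the other groups, and Lama4 rose by a log2 fold change of 0.56 ± 0.0613 (SE, adjusted p = 7.36e-09) against SASCs, short of a fold change of 2, which fell to 0.16 (adjusted p = 0.407) under total-count scaling. The log2 fold change of PASCs was 0.07 (95% interval −0.06 to 0.19), and it turned to −0.25 under total-count scaling.

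Lama2, the α2 chain of muscle and peripheral nerve laminins, was the second most abundant α chain, at 179.9, 192, and 209 CPM (SASCs), 105, 102, and 122 CPM (PASCs), and 86.9, 94.9, and 98.6 CPM (EASCs). The SASCs samples were above all others without overlap. Lama2 fell by 1.05 on the log2 scale in EASCs (SE 0.0681, adjusted p = 1.35e-13), which sits at the edge of the fold limit, being −0.99 without SASCs replicate 3 and −0.997 without EASCs replicate 1. In PASCs the change was −0.82 ± 0.0675 (SE, adjusted p = 2.32e-11), and it passed the limit at −1.14 under total-count scaling. Schwann cell markers were also highest in SASCs, with 8 genes summing to 30.7 to 34.6 CPM (SASCs), 8.03 to 9.53 CPM (PASCs), and 2.34 to 3.09 CPM (EASCs). Most of that sum was S100b, with Foxd3 at 0 in every sample and Sox10 at no more than 0.112 CPM, and its part in the Lama2 difference was not tested.

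Lama5, the α5 chain of the laminins found under most mature epithelia and vessels (chromosome 3, 175553042 to 175601112, minus strand of rn6), was the laminin gene with the largest change in EASCs. It was measured at 10.4, 9.08, and 10.4 CPM (SASCs), 7.95, 7.21, and 10.4 CPM (PASCs), and 69.0, 72.6, and 87.1 CPM (EASCs). The 3 EASCs samples lay far above the other 6, whose ranges overlapped. Against SASCs, Lama5 rose 7.64-fold in EASCs, a log2 fold change of 2.93 ± 0.104 (SE, adjusted p = 1.97e-19). In PASCs the log2 fold change was −0.25, with a 95% interval of −0.50 to 0.00, and −0.55 (adjusted p = 0.00548) under total-count scaling.

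Lama3 and Lama1 were both minor chains and moved in opposite directions. Lama3, an α chain of the epidermal basement membrane, was at 16.7, 15.6, and 17.7 CPM (SASCs), 6.54, 5.34, and 6.51 CPM (PASCs), and 2.68, 2.55, and 3.04 CPM (EASCs). The 3 groups did not overlap, with a log2 fold change of −2.59 ± 0.138 (SE, adjusted p = 1.6e-15) in EASCs and −1.44 ± 0.124 (SE, adjusted p = 4.94e-11) in PASCs. Lama1, the α1 chain of early embryonic basement membranes, was at 0.278, 0.721, and 0.732 CPM (SASCs), 2.18, 3.44, and 2.96 CPM (PASCs), and 1.97, 1.58, and 2.64 CPM (EASCs). All PASCs and EASCs samples lay above the SASCs samples, with log2 fold changes of 2.35 ± 0.340 (SE, adjusted p = 8.37e-07) in PASCs and 1.87 ± 0.351 (SE, adjusted p = 3.59e-05) in EASCs, but only 2 of 3 SASCs samples passed the expression minimum of the filter.

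**Figure D2:**
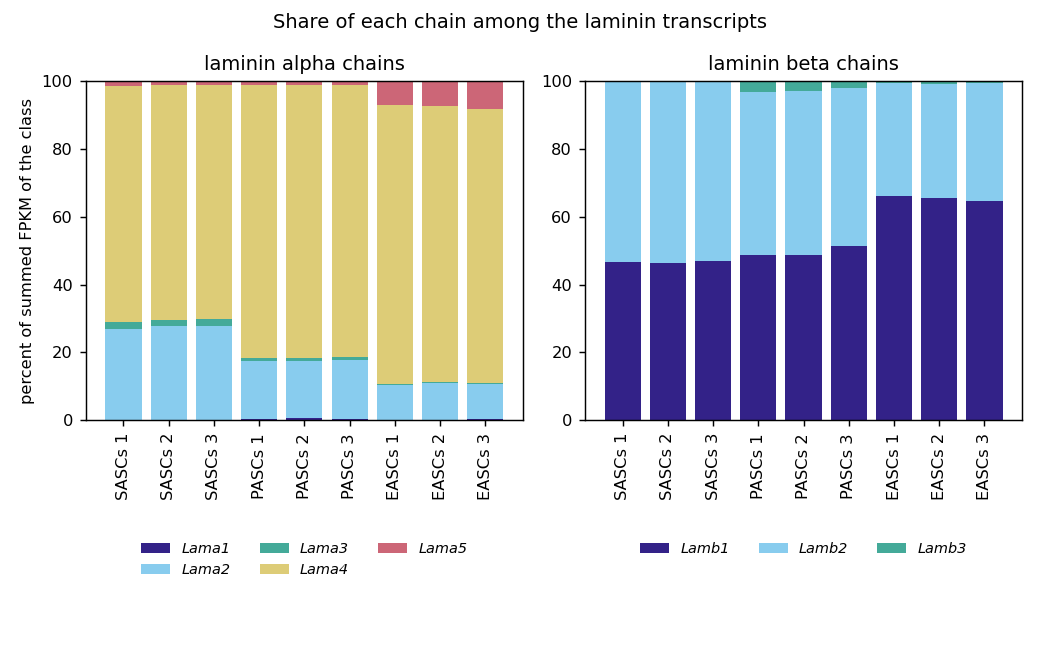
Share of each chain in the summed FPKM of the laminin α and β chains (vertical axis, percent), with 1 stacked bar per sample. The Lama2 share falls from 27.4% in SASCs to 10.6% in EASCs, and the Lama5 share is widest in the EASCs bars at 7.47%.

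As a share of all laminin α transcripts, Lama2 made up 27.4% ± 0.517 in SASCs, 17.2% ± 0.183 in PASCs, and 10.6% ± 0.325 in EASCs (SD, n = 3). Lama4 made up 69.3% ± 0.364 in SASCs, 80.4% ± 0.251 in PASCs, and 81.5% ± 0.705 in EASCs, and Lama5 made up 1.22% ± 0.109 in SASCs, 1.15% ± 0.122 in PASCs, and 7.47% ± 0.554 in EASCs. The ratio of Lama4 to Lama2 was 2.53 ± 0.0616 in SASCs, 4.68 ± 0.0641 in PASCs, and 7.71 ± 0.280 in EASCs. The shares of Lama2 did not overlap between any pair of groups. A two-sided exact permutation test of 3 samples against 3 gave p = 0.1, the smallest value it can give, in 89 of the 111 comparisons of shares that were made (37 genes in 3 comparisons), so no share could pass 0.05.

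The 2 abundant β chains, Lamb1 and Lamb2, were both lower in PASCs than in SASCs. Lamb1, the β1 chain of most laminins of the early basement membrane, was at 406, 424, and 432 CPM (SASCs), 306, 290.2, and 353 CPM (PASCs), and 522, 524, and 544 CPM (EASCs). The groups did not overlap and EASCs were highest, but the rise of 0.33 ± 0.0615 (SE, adjusted p = 2.82e-05) against SASCs turned to −0.06 under total-count scaling. PASCs were lowest, with a log2 fold change of −0.41 ± 0.0618 (SE, adjusted p = 1.5e-06), a value of −0.73 under that scaling. Lamb2, the β2 chain known from the kidney filter and the neuromuscular junction, was at 412, 435, and 432 CPM (SASCs), 269.5, 256, and 283 CPM (PASCs), and 233, 240.1, and 259 CPM (EASCs). SASCs were above all others, with log2 fold changes of −0.81 ± 0.0565 (SE, adjusted p = 7.29e-13) in EASCs and −0.66 ± 0.0563 (SE, adjusted p = 4.39e-11) in PASCs, both short of the fold limit, although EASCs passed it at −1.21 under total-count scaling. The Lamb2 share of all β chain transcripts was 53.1% ± 0.348 in SASCs, 47.6% ± 1.08 in PASCs, and 33.8% ± 0.701 in EASCs, and the ratio of Lamb1 to Lamb2 in FPKM was 0.878 ± 0.0117, 1.04 ± 0.0584, and 1.94 ± 0.0617 in SASCs, PASCs, and EASCs.

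Lamc1, which encodes the γ1 chain shared by nearly all laminins, was the most abundant laminin gene per length, with 204 ± 7.02 FPKM in SASCs, 149 ± 15.7 in PASCs, and 146 ± 12.7 in EASCs. Its samples were at 1558, 1502, and 1609.6 CPM (SASCs), 1069.7, 1068, and 1276 CPM (PASCs), and 1035, 1092, and 1224 CPM (EASCs). PASCs and EASCs overlapped each other and lay below SASCs, with log2 fold changes of −0.48 ± 0.0693 (SE, adjusted p = 8.19e-07) in EASCs and −0.45 ± 0.0693 (SE, adjusted p = 1.99e-06) in PASCs, or −0.88 and −0.77 under total-count scaling. On the log2 scale, EASCs differed from PASCs by −0.03 (95% interval −0.17 to 0.12).

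Lamb3, which encodes a β chain of the epidermal basement membrane (chromosome 13, 112031635 to 112073187, plus strand of rn6), was the laminin gene with the largest log2 fold change in PASCs, at 1.18, 1.06, and 1.46 CPM (SASCs), 13.2, 11.7, and 9.74 CPM (PASCs), and 2.89, 4.17, and 3.58 CPM (EASCs). PASCs were far above the other groups and EASCs above SASCs, with log2 fold changes of 3.24 ± 0.193 (SE, adjusted p = 2.24e-14) in PASCs and 1.53 ± 0.215 (SE, adjusted p = 5.06e-07) in EASCs. Of 8 epithelial markers summed beside it, at 0.293 to 0.552 CPM (SASCs), 1.45 to 2.38 CPM (PASCs), and 1.38 to 1.56 CPM (EASCs), only Krt14 passed the filter. Krt14 was at 0 CPM in every SASCs sample, 0.841 to 2.22 CPM in PASCs, and 0.209 to 0.760 CPM in EASCs. It was an upregulated DEG in both comparisons, but it was tested through the groups where it is high, so a rise was bound to appear. Cdh1 stood at no more than 0.229 CPM, Epcam at no more than 1.13 CPM, Tp63 at no more than 0.0418 CPM, and Krt5 at 0 in all PASCs and EASCs samples. Mesothelial markers also rose against SASCs, as 9 of 9 tested in PASCs (100%, against 12.0% of all genes) and 8 of 9 in EASCs (88.9%, against 13.5%). In SASCs, Krt18 (0 CPM), Upk3b (at most 0.0976 CPM), and Bnc1 (at most 0.255 CPM) lay under the filter minimum of 0.403 CPM, so their rises were bound to appear. Between EASCs and PASCs the median mesothelial change was 0.43 on the log2 scale, where that of Lamb3 was −1.70. The part of these markers was not tested.

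RefSeq held a start site for 28 of the 37 genes on the GRCr8 assembly, and the 250 bases before it were searched on both strands for 5 short motifs. The motif of AP-1 was TGANTCA and that of TEAD factors was GGAATG. The GC box, read by SP1 and its relatives, was searched as GGGCGG. The CCAAT box was searched by the letters of its name, and the TATA box of core promoters as TATAAA. The promoters of the α5 and β3 chains are shown because Lama5 rose most in EASCs and Lamb3 most in PASCs among the laminin genes, with capitals for the matches on either strand. Lama5 lies at chr3:187695975-187696224 on the minus strand and Lamb3 at chr13:107362303-107362552 on the plus strand, and both are written 5′ to 3′ along the gene.
Lama5: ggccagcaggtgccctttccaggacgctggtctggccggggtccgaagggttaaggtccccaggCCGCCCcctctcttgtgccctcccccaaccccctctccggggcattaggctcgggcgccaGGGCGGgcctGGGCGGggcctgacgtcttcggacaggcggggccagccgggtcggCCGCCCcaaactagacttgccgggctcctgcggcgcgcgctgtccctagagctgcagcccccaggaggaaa
Lamb3: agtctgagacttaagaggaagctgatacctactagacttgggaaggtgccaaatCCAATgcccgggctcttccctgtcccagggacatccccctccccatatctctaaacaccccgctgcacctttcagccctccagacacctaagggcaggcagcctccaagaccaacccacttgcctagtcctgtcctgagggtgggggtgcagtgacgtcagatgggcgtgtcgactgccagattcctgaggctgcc
The Lama5 window held 4 GC boxes and no other match, and the Lamb3 window held 1 CCAAT box and no GC box. GC boxes were found in 14 of the 28 members (50.0%) and in 30.5% of 33469 promoters. The other letters were present in 2 (AP-1), 5 (TEAD), 5 (CCAAT), and 2 (TATA) members, and in 6.34%, 12.1%, 34.0%, and 12.9% of all promoters. These matches are a description of the letters and no binding was measured.

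Itgb1, the β1 subunit that pairs with 12 of the α subunits listed here (chromosome 19, 61677512 to 61725537, plus strand of rn6), was the most abundant gene of both families per length, with 277 ± 4.24 FPKM in SASCs, 481 ± 21.9 in PASCs, and 782 ± 18.2 in EASCs. Its promoter is shown as that of the common partner.
Itgb1: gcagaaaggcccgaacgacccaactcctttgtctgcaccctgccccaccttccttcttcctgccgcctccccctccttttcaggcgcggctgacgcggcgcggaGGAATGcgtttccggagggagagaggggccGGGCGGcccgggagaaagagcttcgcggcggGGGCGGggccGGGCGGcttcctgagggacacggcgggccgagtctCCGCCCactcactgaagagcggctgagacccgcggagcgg
It covers chr19:73602027-73602276 of GRCr8 on the plus strand and is printed 5′ to 3′, with 4 GC boxes and 1 TEAD match in capitals. In CPM, Itgb1 stood at 1054, 1027, and 1055 CPM (SASCs), 1766, 1765, and 1908 CPM (PASCs), and 2998, 2979, and 2872 CPM (EASCs). The 3 groups did not overlap. It rose 2.82-fold in EASCs, with a log2 fold change of 1.497 ± 0.0575 (SE, adjusted p = 1.12e-18), and by a log2 fold change of 0.79 ± 0.0567 (SE, adjusted p = 1.12e-12) in PASCs, short of the fold limit and 0.47 under total-count scaling. The gene LOC102556297 lies within its span on the same strand with 1790 counts on average, against 46120 for Itgb1. The Itgb1 share of all β transcripts was 87.0% ± 0.493 in SASCs, 86.9% ± 0.542 in PASCs, and 93.1% ± 0.433 in EASCs.

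**Figure D3:**
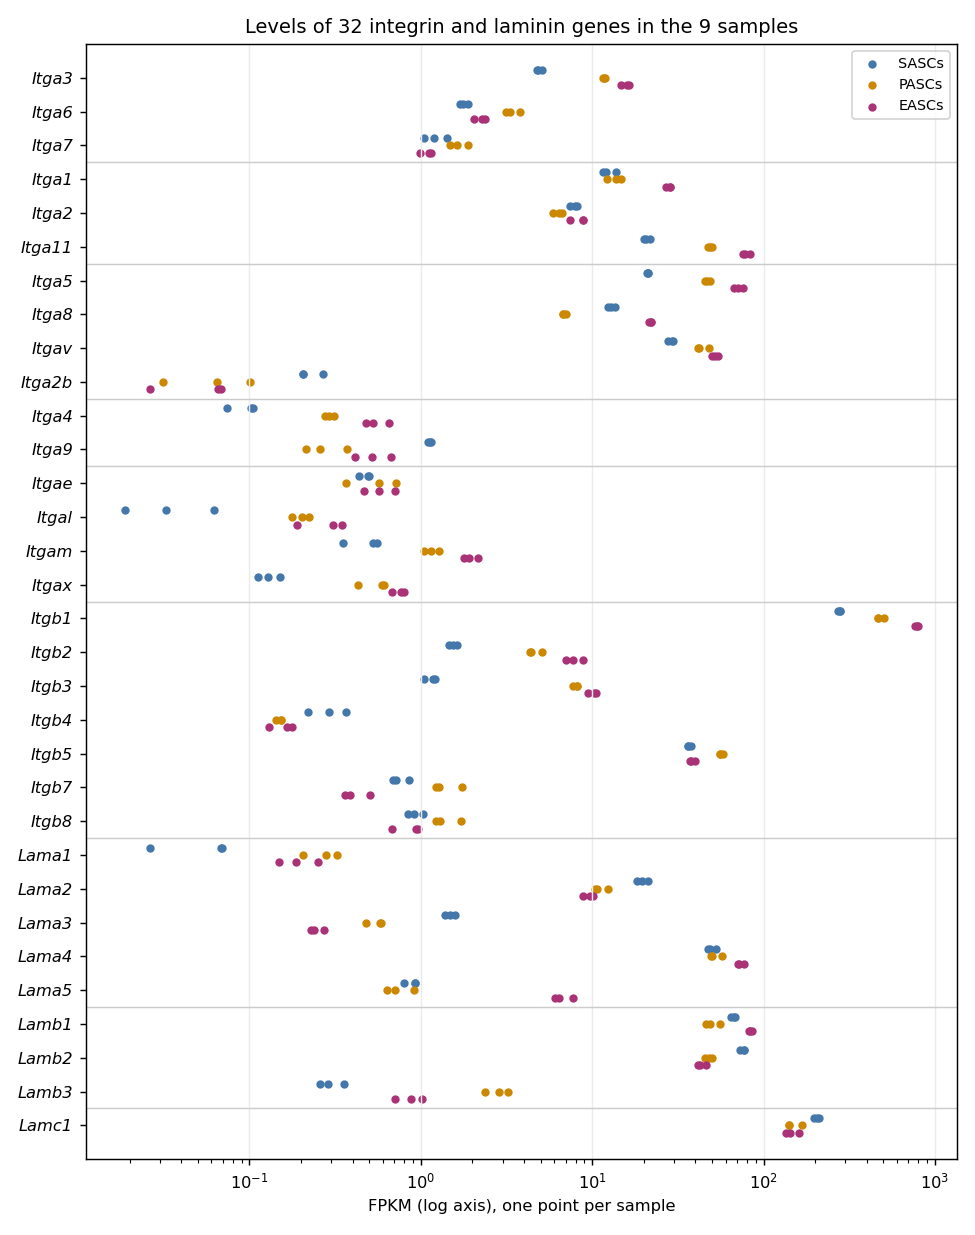
Level of each of 32 tested genes in each of the 9 samples (horizontal axis, FPKM on a log scale), with 1 point per sample coloured by group and grey lines between role groups. Itgb1 lies farthest to the right in every sample, at a mean of 277 FPKM in SASCs and 782 FPKM in EASCs, while Itgb3 shows a wide gap between the SASCs points and the others.

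Itgb3, the β3 subunit of the vitronectin and fibrinogen receptors (chromosome 10, 92667869 to 92783413, plus strand of rn6), showed the widest rise among β subunits. It was at 2.26, 2.63, and 2.54 CPM (SASCs), 16.8, 17.6, and 17.6 CPM (PASCs), and 20.3, 22.6, and 22.3 CPM (EASCs). SASCs were below all other samples, with log2 fold changes of 3.14 ± 0.119 (SE, adjusted p = 8.28e-19) in EASCs and 2.81 ± 0.121 (SE, adjusted p = 1.5e-17) in PASCs, or 8.82-fold and 7.01-fold. It remained a minor subunit, with a share of β transcripts of 0.359% ± 0.0305 in SASCs, 1.45% ± 0.0520 in PASCs, and 1.20% ± 0.0811 in EASCs. Itgb5, another αv partner that binds vitronectin, was at 133, 139.8, and 133 CPM (SASCs), 214, 206, and 205 CPM (PASCs), and 138, 138, and 146 CPM (EASCs). PASCs were above the rest, by a log2 fold change of 0.62 ± 0.0520 (SE, adjusted p = 3.34e-11), which fell to 0.30 (adjusted p = 0.102) under total-count scaling. EASCs differed from SASCs by 0.06 (95% interval −0.05 to 0.16), a value that turned to −0.34 under that scaling. The Itgb5 share of β transcripts was 11.5% ± 0.447 in SASCs, 10.2% ± 0.555 in PASCs, and 4.56% ± 0.240 in EASCs.

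The remaining β subunits were weakly expressed. Itgb7, a lymphocyte homing subunit, was at 2.88, 2.42, and 2.34 CPM (SASCs), 5.85, 4.15, and 4.34 CPM (PASCs), and 1.30, 1.22, and 1.70 CPM (EASCs). PASCs were highest and EASCs lowest, without overlap, but neither difference from SASCs reached a fold change of 2, at 0.90 ± 0.210 (SE, adjusted p = 4.58e-04) in PASCs and −0.87 ± 0.241 (SE, adjusted p = 0.00236) in EASCs. The PASCs value passed the limit without SASCs replicate 1, at 1.01, and without PASCs replicate 2, at 1.00, and the EASCs value without EASCs replicate 3, at −1.02, and under total-count scaling, at −1.29, where the PASCs value was 0.58. Znf740 overlaps Itgb7 on the other strand with 1026 counts on average, against 70.3 for Itgb7, and without a stated strand setting their reads cannot be told apart. Itgb4, the laminin receptor subunit of hemidesmosomes, ranged from 0.760 to 2.16 CPM over all samples, with log2 fold changes of −0.88 ± 0.333 (SE, adjusted p = 0.0216) in EASCs and −0.96 ± 0.335 (SE, adjusted p = 0.0135) in PASCs. Both passed the fold limit without SASCs replicate 1, at −1.06 and −1.14, and under total-count scaling, at −1.27 and −1.29. Itgb8, a subunit that activates latent TGF-beta together with αv, ranged from 5.69 to 14.3 CPM, with a log2 fold change of 0.60 ± 0.145 (SE, adjusted p = 6.98e-04) in PASCs and −0.10 in EASCs (adjusted p = 0.56), which became 0.29 (adjusted p = 0.199) and −0.496 (adjusted p = 0.0219) under total-count scaling.

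Among the laminin-binding α subunits, Itga3 was the only one of 3 to be called. Its product pairs with β1 to bind laminins that contain α3 or α5 chains. Itga3 (chromosome 10, 82855841 to 82887779, minus strand of rn6) was at 23.4, 23.8, and 25.2 CPM (SASCs), 59.0, 57.4, and 58.1 CPM (PASCs), and 72.9, 78.5, and 81.5 CPM (EASCs). The 3 groups did not overlap, with log2 fold changes of 1.69 ± 0.0658 (SE, adjusted p = 1.56e-18) in EASCs and 1.27 ± 0.0663 (SE, adjusted p = 1.19e-15) in PASCs, the latter 0.95 under total-count scaling. Itga6, a broad laminin receptor that pairs with β1 or β4, ranged from 10.4 to 23.3 CPM and rose by a log2 fold change of 0.93 ± 0.102 (SE, adjusted p = 6.02e-09) in PASCs and by a log2 fold change of 0.32 ± 0.105 (SE, adjusted p = 0.00779) in EASCs. Under total-count scaling the values were 0.61 in PASCs and −0.06 in EASCs. Itga7, the laminin receptor of muscle, ranged from 4.52 to 8.59 CPM, with a log2 fold change of 0.46 ± 0.151 (SE, adjusted p = 0.00859) in PASCs and −0.16 in EASCs (95% interval −0.48 to 0.16), which became 0.13 (adjusted p = 0.625) and −0.56 (adjusted p = 0.0178) under total-count scaling.

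The collagen receptors were led by Itga11, which encodes the fibrillar collagen receptor of fibroblasts (chromosome 8, 67566872 to 67683973, plus strand of rn6). Its level was 20.8 ± 0.860 FPKM in SASCs, 48.7 ± 1.27 in PASCs, and 79.2 ± 3.70 in EASCs, and its samples were at 113, 115, and 122 CPM (SASCs), 272, 266, and 280.2 CPM (PASCs), and 425, 439, and 466 CPM (EASCs). EASCs exceeded PASCs and PASCs exceeded SASCs in every sample. Itga11 rose 3.81-fold in EASCs, with a log2 fold change of 1.93 ± 0.0566 (SE, adjusted p = 2.31e-21), and 2.34-fold in PASCs, with a log2 fold change of 1.23 ± 0.0559 (SE, adjusted p = 5.48e-17), the latter 0.91 under total-count scaling. Itga1, a receptor for basement membrane collagen IV, was at 133, 127, and 152 CPM (SASCs), 134, 152, and 162 CPM (PASCs), and 296, 314, and 314 CPM (EASCs). EASCs were above all others, with a log2 fold change of 1.17 ± 0.0672 (SE, adjusted p = 9.93e-15), a value of 0.77 under total-count scaling, while PASCs and SASCs overlapped, with 0.12 (95% interval −0.02 to 0.26), a value that turned to −0.20 under that scaling. Pelo lies within Itga1 on the same strand, with 1001 counts on average against 4713. Itga2, the third collagen receptor tested, ranged from 43.5 to 64.5 CPM and was not a DEG, with a log2 fold change of −0.31 ± 0.0707 (SE, adjusted p = 3.72e-04) in PASCs and 0.09 in EASCs (adjusted p = 0.241), or −0.63 and −0.29 under total-count scaling. The ratio of Itga11 to Itga1 in FPKM was 1.68 ± 0.1003 in SASCs, 3.62 ± 0.319 in PASCs, and 2.83 ± 0.0850 in EASCs.

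Of the 4 tested α subunits that read the RGD tripeptide of fibronectin, vitronectin, and related ligands, Itga5 and Itgav were the most abundant per length. Itga5, the fibronectin receptor subunit (chromosome 7, 144970444 to 144993652, minus strand of rn6), was at 91.2, 93.1, and 92.9 CPM (SASCs), 206, 199.8, and 214 CPM (PASCs), and 295, 312, and 334 CPM (EASCs). The groups did not overlap, with a log2 fold change of 1.76 ± 0.0569 (SE, adjusted p = 2.07e-20) in EASCs and 1.16 ± 0.0565 (SE, adjusted p = 2.48e-16) in PASCs, the latter 0.84 under total-count scaling. Itgav, which pairs with β1, β3, β5, β6, and β8, was at 219, 207, and 222 CPM (SASCs), 308, 316, and 358 CPM (PASCs), and 376, 387, and 404 CPM (EASCs). It rose by a log2 fold change of 0.85 ± 0.0594 (SE, adjusted p = 6.83e-13) in EASCs and by a log2 fold change of 0.60 ± 0.0594 (SE, adjusted p = 8.66e-10) in PASCs, and neither passed the fold limit. Under total-count scaling the values were 0.46 in EASCs and 0.28 (adjusted p = 0.121) in PASCs. The shares of Itga5 among α transcripts were 18.4% ± 0.603 in SASCs, 25.3% ± 0.545 in PASCs, and 25.1% ± 0.633 in EASCs, and those of Itgav were 25.2% ± 0.628 in SASCs, 23.5% ± 0.910 in PASCs, and 18.3% ± 0.0550 in EASCs.

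Itga8, which encodes the nephronectin receptor subunit known from kidney and contractile mesenchyme (chromosome 17, 79321896 to 79676499, minus strand of rn6), moved in opposite directions in EASCs and PASCs. It was at 72.4, 75.1, and 79.2 CPM (SASCs), 39.6, 39.5, and 41.2 CPM (PASCs), and 129.5, 129.6, and 125 CPM (EASCs). No groups overlapped, with log2 fold changes of 0.76 ± 0.0556 (SE, adjusted p = 1.77e-12) in EASCs and −0.92 ± 0.0587 (SE, adjusted p = 1.12e-13) in PASCs, both short of the fold limit, although PASCs passed it at −1.24 under total-count scaling, where EASCs stood at 0.37. Itga2b, the platelet αIIb subunit, was at 1.29, 0.976, and 0.976 CPM (SASCs), 0.306, 0.149, and 0.476 CPM (PASCs), and 0.126, 0.324, and 0.313 CPM (EASCs). SASCs were above all others but rested on low counts, and Itga2b passed the filter through SASCs, with 1 of 3 PASCs samples and 0 of 3 EASCs samples over the minimum. Its log2 fold changes were −2.07 ± 0.498 (SE, adjusted p = 6.18e-04) in EASCs and −1.85 ± 0.486 (SE, adjusted p = 0.00149) in PASCs.

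Itga9 and Itga4, relatives that bind fibronectin variants and VCAM1, split. Itga9 was at 8.03, 8.23, and 7.86 CPM (SASCs), 1.53, 1.83, and 2.65 CPM (PASCs), and 3.72, 2.96, and 4.78 CPM (EASCs). It was highest in SASCs and lowest in PASCs without overlap, with log2 fold changes of −2.03 ± 0.200 (SE, adjusted p = 7.86e-10) in PASCs and −1.08 ± 0.183 (SE, adjusted p = 8.96e-06) in EASCs, the latter −0.92 without EASCs replicate 2. Ctdspl overlaps Itga9 on the same strand with 704 counts on average against 110 for Itga9, so the assignment of these reads is uncertain. Itga4 was at 0.278, 0.382, and 0.390 CPM (SASCs), 1.03, 1.08, and 1.16 CPM (PASCs), and 2.43, 1.78, and 1.97 CPM (EASCs). Every PASCs and EASCs sample was above SASCs, where 2 of 3 samples passed the minimum, with log2 fold changes of 2.56 ± 0.370 (SE, adjusted p = 8.13e-07) in EASCs and 1.64 ± 0.393 (SE, adjusted p = 6e-04) in PASCs.

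Of the leukocyte integrins, present at low levels in each deposit, Itgb2, Itgam, and Itgax were upregulated in EASCs and in PASCs. Itgb2, the β2 subunit of all leukocyte CD11 receptors, was at 4.62, 5.13, and 4.88 CPM (SASCs), 13.8, 13.9, and 16.1 CPM (PASCs), and 24.3, 22.2, and 28.1 CPM (EASCs). The 3 groups did not overlap, with log2 fold changes of 2.35 ± 0.116 (SE, adjusted p = 3.39e-16) in EASCs and 1.58 ± 0.120 (SE, adjusted p = 4.57e-12) in PASCs. Itgam, the α subunit of the macrophage receptor for complement fragments, was at 2.22, 2.12, and 1.41 CPM (SASCs), 5.12, 4.18, and 4.60 CPM (PASCs), and 7.74, 7.21, and 8.72 CPM (EASCs). It also rose without overlap, by a log2 fold change of 2.01 ± 0.183 (SE, adjusted p = 1.63e-10) in EASCs and by a log2 fold change of 1.25 ± 0.191 (SE, adjusted p = 1.92e-06) in PASCs, the latter 0.93 under total-count scaling. The row named Itgax, for the CD11c subunit of dendritic cells and macrophages, was at 0.799, 0.594, and 0.683 CPM (SASCs), 2.29, 3.14, and 3.23 CPM (PASCs), and 4.23, 3.61, and 4.07 CPM (EASCs). Its log2 fold changes were 2.498 ± 0.261 (SE, adjusted p = 2.61e-09) in EASCs and 2.03 ± 0.268 (SE, adjusted p = 1.77e-07) in PASCs. The table gives this row the gene ID of Itgad, a related gene nearby with a row of its own at 0 to 1 counts, so the identity of the Itgax row rests on the symbol. Itgal, the α subunit of the lymphocyte receptor LFA-1, was at 0.278, 0.0848, and 0.146 CPM (SASCs), 0.918, 1.01, and 0.794 CPM (PASCs), and 1.38, 0.851, and 1.56 CPM (EASCs), with log2 fold changes of 2.80 ± 0.493 (SE, adjusted p = 1.53e-05) in EASCs and 2.34 ± 0.510 (SE, adjusted p = 2.24e-04) in PASCs, on 2 to 8 counts per SASCs sample. It passed the filter through PASCs and EASCs, with 0 of 3 SASCs samples over the minimum, so a difference was bound to appear. Itgae, the subunit of tissue-resident lymphocytes, ranged from 1.38 to 2.70 CPM, with 0.29 in EASCs (95% interval −0.27 to 0.85) and 0.20 in PASCs (95% interval −0.37 to 0.76), values that turned to −0.10 and −0.12 under total-count scaling. Gsg2 overlaps Itgae on the other strand with 358 counts on average, against 47.6 for Itgae, so their reads cannot be told apart either.

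Other leukocyte markers also rose, more of them in EASCs than in PASCs. Of 16 markers, 15 were upregulated in EASCs (93.8%, against 13.5% of all genes) and 8 in PASCs (50.0%, against 12.0%). The other 8 were not DEGs in PASCs, where Mrc1 lay lower (12.8 to 16.2 CPM) than in SASCs (17.1 to 18.2 CPM). The summed level of the 16 was 82.3 to 89.6 CPM (SASCs), 170.5 to 173 CPM (PASCs), and 287 to 294 CPM (EASCs). The pan-leukocyte gene Ptprc stood at 0.764 to 1.27 CPM (SASCs), 1.38 to 1.91 CPM (PASCs), and 2.84 to 3.22 CPM (EASCs), and no marker of the list was at 0 in every sample. The part of these markers in the rise of Itgb2, Itgam, Itgax, and Itgal was not tested.

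A direct comparison of EASCs with PASCs addressed where PASCs and EASCs differed from each other. Of the 33 genes, 3 were upregulated in EASCs (9.09%, against 5.19% of all genes) and 4 were downregulated (12.1%, against 2.2%). At any fold change, 16 were higher (48.5%, against 16.1% of all genes) and 9 lower (27.3%, against 14.5%). Lama5 was 9.08-fold higher in EASCs, with a log2 fold change of 3.18 ± 0.107 (SE, adjusted p = 1.03e-18). Itga8 was 3.20-fold higher, with a log2 fold change of 1.68 ± 0.0582 (SE, adjusted p = 2.09e-18). Itga1 was 2.07-fold higher, with a log2 fold change of 1.05 ± 0.0669 (SE, adjusted p = 7.47e-13), and its log2 fold change was 0.98 both without PASCs replicate 1 and under total-count scaling. In the same comparison, 7 of 9 endothelial markers were upregulated (77.8%, against 5.19% of all genes), with a median log2 fold change of 2.102. So were 5 of 8 smooth muscle markers (62.5%), with a median of 1.42. Against SASCs, 1 of the 9 endothelial markers was upregulated in EASCs (11.1%, against 13.5% of all genes) and 1 downregulated (11.1%, against 14.2%), with a median of −0.50. The part of these markers was not tested. Lamb3 was lower in EASCs than in PASCs, with a log2 fold change of −1.70 ± 0.165 (SE, adjusted p = 3.4e-09), and so was Lama3, with a log2 fold change of −1.15 ± 0.150 (SE, adjusted p = 6.48e-07). Itgb7 was also lower in EASCs, with a log2 fold change of −1.77 ± 0.228 (SE, adjusted p = 5.43e-07). Leaving out EASCs replicate 2 gave 5 upregulated genes, with Itga9 at 1.11 and Itga4 at 1.01 past the fold limit, and leaving out PASCs replicate 3 put Itga9 at 1.18.

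**Figure D4:**
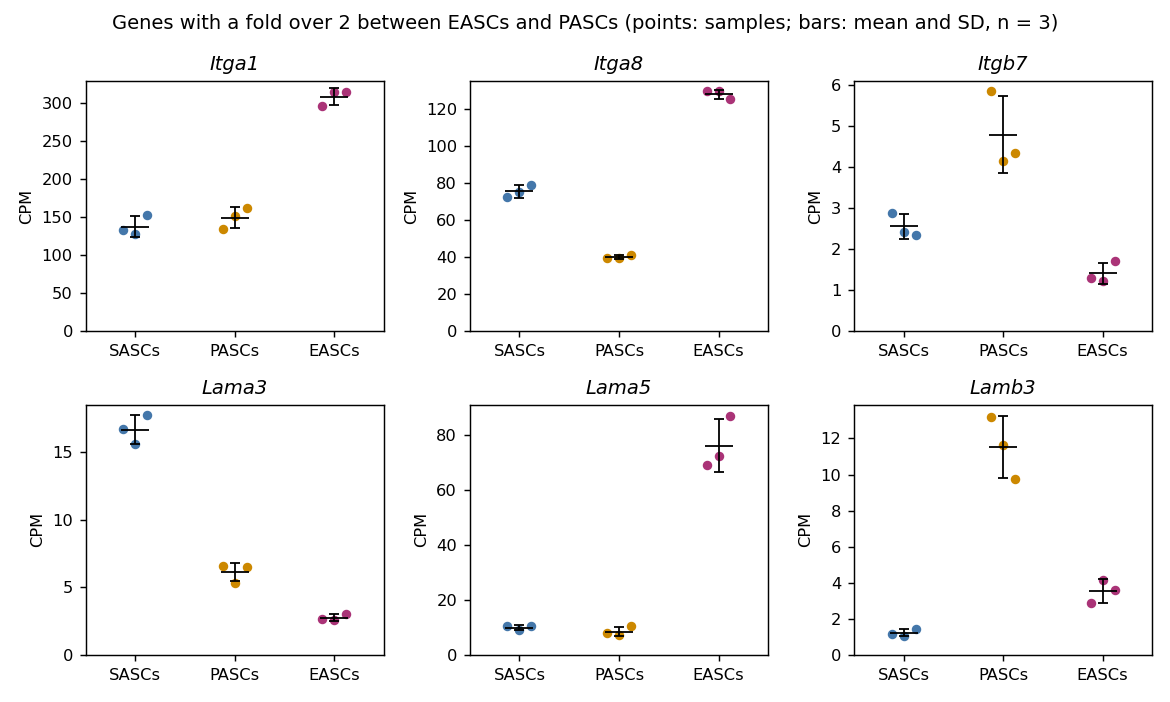
Level in each sample (vertical axis, CPM, with its own linear range in each panel) of 6 genes called between EASCs and PASCs, with points for samples and bars for the mean and SD of 3. Lama5 separates EASCs, at 69.0 to 87.1 CPM, from both other groups, and Lamb3 separates PASCs, at 9.74 to 13.2 CPM.

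Levels were also summed over the members of each class. The α integrins summed to 114 ± 3.94 FPKM in SASCs, 186 ± 8.004 in PASCs, and 285 ± 10.6 in EASCs, and the β integrins to 319 ± 3.08, 553 ± 21.9, and 839.9 ± 15.6 (SD, n = 3). Both sums stood in the order EASCs, PASCs, SASCs with no overlap (two-sided exact permutation test, p = 0.1 for each pair, the smallest that 3 against 3 can give). Itgb1 exceeded the sum of its 12 α partners by a ratio of 2.45 ± 0.0696 in SASCs, 2.62 ± 0.00914 in PASCs, and 2.79 ± 0.166 in EASCs. The ratios of PASCs (2.608 to 2.626) and EASCs (2.612 to 2.941) overlapped (two-sided exact permutation test, p = 0.3). The laminin α chains summed to 72.1 ± 4.33, 65.0 ± 5.67, and 90.1 ± 4.51 FPKM, and the laminin β chains to 143 ± 4.20, 101 ± 7.24, and 128 ± 4.26 FPKM, in SASCs, PASCs, and EASCs. The ratio of Lamc1 to all α chains was 2.83 ± 0.129 in SASCs, 2.29 ± 0.0455 in PASCs, and 1.62 ± 0.0595 in EASCs. Summed, the smooth muscle markers stood in the same order as the integrin sums, and most of their sum was Tagln and Acta2. Of the 8, 7 were upregulated in EASCs (87.5%, against 13.5% of all genes) and 6 in PASCs (75.0%, against 12.0%). In each comparison 1 was downregulated (12.5%, against 14.2% and 14.9%). Rgs5 was lower in PASCs (at most 0.153 CPM) and EASCs (at most 0.293 CPM) than in SASCs (at least 0.976 CPM). Cspg4 was higher in PASCs (at least 62.06 CPM) than in EASCs (at most 55.04 CPM). Whether these markers had a part in the integrin sums was not tested.

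**Figure D5:**
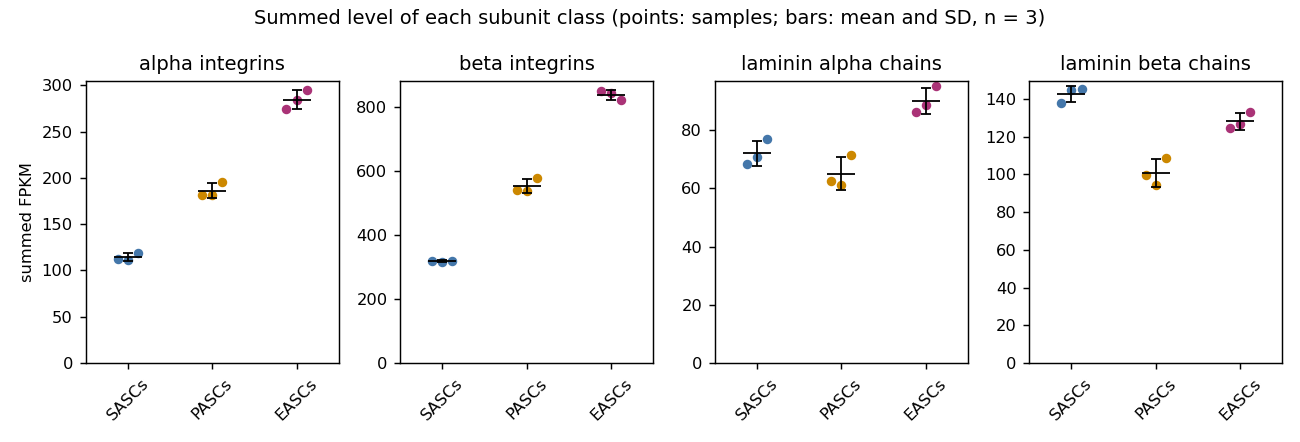
Summed FPKM of each class (vertical axis) in SASCs, PASCs, and EASCs, with points for the 9 samples and bars for the mean and SD of 3. The integrin classes rise from SASCs to EASCs, from 319 to 839.9 FPKM for the β subunits, while the laminin β chains are highest in SASCs at 143 FPKM.

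The proteins that link integrins to actin were followed in a list of 37 adaptor genes, of which 35 were tested. In EASCs, 14 were upregulated (40.0%, against 13.5% of all genes) and 2 downregulated (5.71%, against 14.2%), with a median log2 fold change of 0.77, where the median of all genes was 0.01. In PASCs, 12 were upregulated (34.3%, against 12.0%) and 1 downregulated (2.86%, against 14.9%), with a median of 0.69 against −0.01. Actn1, the actin crosslinker α-actinin 1, was at 99.04 ± 7.56 CPM in SASCs against 613 ± 18.7 in PASCs and 884 ± 33.7 in EASCs (SD, n = 3), with log2 fold changes of 3.16 ± 0.0639 (SE, adjusted p = 6.16e-25) in EASCs and 2.63 ± 0.0627 (SE, adjusted p = 2.95e-23) in PASCs. Flna, the crosslinker filamin A that binds β integrin tails, was at 865 ± 31.6 CPM in SASCs against 4209 ± 30.9 in PASCs and 5759 ± 339 in EASCs, with a log2 fold change of 2.28 ± 0.0628 (SE, adjusted p = 6.55e-22) in PASCs. Lims2, a partner of integrin-linked kinase, was at 5.35 ± 0.738 CPM in SASCs against 22.4 ± 0.623 in PASCs and 42.3 ± 3.68 in EASCs, with a log2 fold change of 2.98 ± 0.102 (SE, adjusted p = 7.95e-20) in EASCs. Parvg, a leukocyte parvin, was at 0.0394 ± 0.0357 CPM in SASCs against 0.181 ± 0.118 in PASCs and 1.15 ± 0.543 in EASCs, which in SASCs is under 3 counts per sample. Its SASCs and PASCs means lay under the filter minimum, so it was tested through EASCs and its rise there, counted among the 14, was bound to appear.

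Of 22 partners of laminin in the basement membrane, 16 were tested. In EASCs, 7 were upregulated (43.8%, against 13.5% of all genes) and 1 downregulated (6.25%, against 14.2%), with a median of 0.77. In PASCs, 4 were upregulated (25.0%, against 12.0%) and 3 downregulated (18.8%, near the 14.9% of all genes), with a median of −0.04. Sdc1, a heparan sulfate coreceptor, was at 55.1 ± 5.64 CPM in SASCs against 191 ± 7.87 in PASCs and 292 ± 11.2 in EASCs, with log2 fold changes of 2.41 ± 0.0651 (SE, adjusted p = 3.76e-22) in EASCs and 1.79 ± 0.0645 (SE, adjusted p = 2.48e-19) in PASCs. Col18a1, the basement membrane collagen that yields endostatin, was at 194 ± 3.998 CPM in SASCs against 21.6 ± 0.831 in PASCs and 42.4 ± 1.22 in EASCs, with log2 fold changes of −2.19 ± 0.0572 (SE, adjusted p = 1.78e-22) in EASCs and −3.17 ± 0.0613 (SE, adjusted p = 3.37e-25) in PASCs. Fras1, an epithelial basement membrane protein, was at 0.168 ± 0.0281 CPM in SASCs against 1.85 ± 0.165 in PASCs and 1.24 ± 0.0475 in EASCs, with log2 fold changes of 3.44 ± 0.426 (SE, adjusted p = 5.87e-08) in PASCs and 2.87 ± 0.443 (SE, adjusted p = 2.22e-06) in EASCs, on few counts in SASCs. Its SASCs mean lay under the filter minimum of 0.403 CPM, so it was tested through the other groups and a rise was bound to appear.

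Of 23 other integrin ligands, 17 were tested. In EASCs, 5 were upregulated (29.4%, against 13.5% of all genes) and 1 downregulated (5.88%, against 14.2%), with a median of 0.22. In PASCs, 5 were upregulated (29.4%, against 12.0%) and 3 downregulated (17.6%, near the 14.9% of all genes), with a median of 0.24. Tnc, the tenascin-C ligand of α8, α9, and αv integrins, was at 217 ± 10.3 CPM in SASCs against 981 ± 68.7 in PASCs and 3510.2 ± 225 in EASCs, with log2 fold changes of 4.01 ± 0.0715 (SE, adjusted p = 4.44e-26) in EASCs and 2.17 ± 0.0664 (SE, adjusted p = 6.71e-21) in PASCs. Ctgf, a matricellular ligand, was at 372 ± 21.7 CPM in SASCs against 2474 ± 184 in PASCs and 3595 ± 139.8 in EASCs, with a log2 fold change of 3.27 ± 0.0692 (SE, adjusted p = 1.67e-24) in EASCs. Tgfbi, a secreted RGD protein that binds collagens, was at 154 ± 5.94 CPM in SASCs against 26.1 ± 0.488 in PASCs and 9.01 ± 1.03 in EASCs, with log2 fold changes of −4.10 ± 0.0756 (SE, adjusted p = 9.42e-26) in EASCs and −2.56 ± 0.0665 (SE, adjusted p = 1.83e-22) in PASCs. The log2 fold changes of the integrin and laminin genes against SASCs lay between −2.59 for Lama3 and 3.24 for Lamb3.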

How the data were processed

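RNA of 9 samples of passage 3 ASCs, 3 each of SASCs, PASCs, and EASCs, was sequenced on an Illumina HiSeq instrument with paired-end reads. The authors removed adaptors with cutadapt and low-quality sequence with FastX-Toolkit and aligned with TopHat to rn6, while the submitters' processing notes name TopHat2 and rn5. The positions in the table, which reach base 62255426 on chromosome 19, were used as rn6. The deposited values are raw counts per gene for 35362 genes with a gene length. The counter, its strand setting, and its handling of multiply mapped reads are not given in the sources used here.

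The counts were filtered (filterByExpr, minimum count 10), scaled with TMM factors (0.740 to 1.23), and tested in edgeR 4.0.16 (R 4.3.3) by the quasi-likelihood test in 1 model of 3 groups, with Benjamini-Hochberg adjustment over 14770 genes. Each comparison was a contrast, with DEGs at a fold change over 2 and an adjusted p under 0.05, the limits of the study. The common biological coefficient of variation was 0.0685. CPM used the TMM-scaled totals, and FPKM divided CPM by the deposited gene length. The floor of 3 counts reflects the error of counting alone. Alternatives were DESeq2 1.42.0, total-count scaling, no filter, no ribosomal RNA genes (7), each comparison alone, a replicate block, leaving out each sample, any fold change, and shares without length scaling. Samples with the same number deviated together by correlations of −0.0348 to 0.0380, so the numbers were not taken as pairs. Replicates differed by 4.58 to 18.0 times the sampling variance, so none were counted as 1 library, which does not tell whether they came from separate cultures.

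The members and all gene lists were chosen with earlier results of these data known. Values in every sample are given for members called in any comparison and for the most abundant member of each role group, and of the other lists the 3 called genes with the largest change in each comparison with SASCs are named. 1 gene is counted in the totals and its values are not reported here. Promoters are from RefSeq on GRCr8, and no coordinates were converted between builds.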

Additional observations from a re-analysis of the deposited data

Results flagged for a closer look

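In 6 of the genes described above, the change against SASCs differed between EASCs and PASCs by more than a fold change of 2, as tested by the contrast of EASCs with PASCs in the model of all genes (edgeR's quasi-likelihood test). EASCs exceeded PASCs for Lama5 by 3.18, for Itga8 by 1.68, and for Itga1 by 1.05 on the log2 scale. The difference went the other way for Itgb7 (−1.77), Lamb3 (−1.70), and Lama3 (−1.15). For Itga8 and Itgb7, every sample of one group lay above the SASCs samples and every sample of the other below them. Groups of 3 samples were not examined for single outlying samples.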

How the results depend on the processing

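Under DESeq2, no filter, each comparison alone, and the fit without ribosomal RNA genes, every count of DEGs stayed within 1.5 times its value. With the replicate block, the counts were 15 up and 4 down in EASCs, 12 up and 3 down in PASCs, and 3 up and 4 down between EASCs and PASCs. Total-count scaling gave 7 downregulated genes in EASCs (21.2%, against 23.2% of all genes) and 6 in PASCs (18.2%, against 21.4%). At any fold change, 20 genes were up and 8 down in EASCs, 19 up and 10 down in PASCs, and 16 up and 9 down between EASCs and PASCs. Leaving out each sample gave 14 to 15 up and 3 to 5 down in EASCs, 12 to 13 up and 3 to 4 down in PASCs, and 2 to 5 up (5 without EASCs replicate 2) and 4 down between EASCs and PASCs.

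Without scaling by length, Lama2 made up 36.4%, 24.2%, and 14.8% of laminin α counts in SASCs, PASCs, and EASCs, Lama5 1.88%, 1.87%, and 12.0%, Lamb2 50.3%, 45.2%, and 31.4% of β counts, and Itga11 15.5%, 23.9%, and 25.2% of integrin α counts, so the order of the groups by mean stayed the same.

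The totals used in total-count scaling include the ribosomal RNA counts, at 10.4% to 15.5% (SASCs), 22.4% to 32.9% (PASCs), and 15.9% to 40.3% (EASCs). In the TMM fit without ribosomal RNA genes, 98 gene results kept their direction and call and 1 passed the fold limit. Directions that turned belonged to small changes. Under total-count scaling these were, in EASCs, Itga2 (−0.29), Itga6 (−0.064), Itgae (−0.098), Itgb5 (−0.34), and Lamb1 (−0.063), and in PASCs, Itga1 (−0.20), Itgae (−0.12), and Lama4 (−0.25). With each sample left out in turn, the value ranged from −0.19 to 0.045 for Itgb8 in EASCs, from −0.019 to 0.43 for Itgae and from −0.0041 to 0.11 for Lama4 in PASCs, and, between EASCs and PASCs, from −0.58 to 0.16 for Itga2b, from −0.14 to 0.31 for Itgae, from −0.015 to 0.20 for Itgb4, and from −0.0925 to 0.065 for Lamc1. The cause was not tested. Low counts limit Itga2b, Itga4, Itgal, Itgb4, and Lama1.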
